A study of Rattus norvegicus with 12 samples.

Results

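Integrins are receptors that hold cells to the matrix or to other cells, and laminins are the 3-chain proteins of basement membranes that several integrins bind. All genes of the deposited rat array table whose symbol follows the pattern of an integrin alpha subunit, an integrin beta subunit or a laminin chain were taken, which gave 25 of 14329 genes: 11 alpha subunits, 7 beta subunits and 7 laminin chains. The pattern picks genes by symbol and not by measured value, but it was set with earlier results of these data known. Each of the 25 was read by 1 probe set, the group of probes that gives 1 value per gene and array. Lama2, Lama4, Lamb1, Itgax, Itgae, Itga3, Itgav, Itgb3, Itga8, Itga9, Itga2b and Lamb4 belong to the same families and were not analysed here, and 1 further probe set that carries several symbols was left out.

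The RNA came from laryngeal muscle of male F344 rats, an inbred strain. One muscle, the posterior cricoarytenoid (PCA), abducts the vocal folds, and the other, the laryngeal adductor complex (AC), brings them together. In the injury groups the recurrent laryngeal nerve, which drives both, had been cut on 1 side with loss of a 1 cm piece, and tissue was taken 1 week later. Control rats had the same operation without the cut, under the same ketamine and xylazine anaesthesia, so that each muscle has 3 control and 3 injury arrays. The labels state no ages. They give 10 animals per surgery group but not the animal behind an array, and the p-values therefore reflect variation among arrays that could be technical.

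Values are log2 expression levels. Differences are given as the log2 difference ± SE from limma, and "rose" or "fell" is used of genes with an adjusted p under 0.05 in that fit. The score of a marker list is the mean log2 level of its genes in 1 array. The score of 11 skeletal muscle markers lay between 12.30 and 13.01 in all 12 arrays, near the top of a table whose values run from 2.57 to 14.04. The score of 14 thyroid and parathyroid markers reached 9.92 in PCA control 1, 9.67 for PCA injury 2 and 8.51 for AC injury 2, against 6.38 to 7.17 in the other 9 arrays, so results are also given without these 3 arrays where that changes them.

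An integrin is always a pair of 1 alpha and 1 beta chain. In skeletal muscle the main adult pair joins Itga7 to Itgb1 and links the fibre to laminin, beside the dystroglycan complex, which is the other large laminin receptor of the fibre. Itgb2 pairs with Itgal, Itgam and Itgad on leukocytes only. Itgb4 pairs with Itga6 in the hemidesmosomes that fix epithelium to its basement membrane, where Lama3 and Lamb3 are found, and Itgb6 is an epithelial receptor that binds latent transforming growth factor beta. Itga1, Itga2, Itga10 and Itga11 are the collagen receptors among the alpha chains, and Itga5 is the classical fibronectin receptor.

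In injured PCA 13 of the 25 subunits passed, 8 higher and 5 lower. That is 52.0%, where the same fit called 25.8% of all genes, 13.3% higher and 12.5% lower. The 8 that rose were Itgam, Itgb2, Itgal, Itga4, Itga5, Itga11, Itgb7 and Itgb1. The 5 that fell were Itga10, Itgb6, Lamc3, Itga7 and Lamb2. The median log2 difference over the 25 was 0.12, against -0.03 over all genes. For 15 of the 25 the injured PCA arrays all lay on 1 side of the control arrays, as they did for 37.0% of all genes. Without the 3 arrays rich in thyroid transcripts 11 subunits passed, where 16.3% of all genes did, and Itga5 (adjusted p = 0.0511) and Itga11 (adjusted p = 0.175) did not. With a covariate for squamous epithelium marker level, a setting chosen after the data were seen, 3 passed (12%): Itgam, Itgb2 and Itgb6. Calls over all genes dropped in that fit too, to 3.31%. The squamous score itself did not overlap between control PCA (8.27 to 10.16) and injured PCA (10.54 to 11.07), and SEs were larger, 0.57 against 0.31 for Itgam. Among the calls lost, the difference of Itgal was then 1.41 ± 0.36 (1.36 ± 0.20 without the covariate) and that of Itga10 -0.63 ± 0.32 (-1.24 ± 0.22).

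In injured AC 2 of the 25 passed, Itga5 and Itgal, both higher, which is 8.0%, against 1.91% of all genes called in either direction and 1.15% called higher. The arrays of injured and control AC did not overlap for 14 of the 25, against 28.4% of all genes. The AC calls depended on single arrays, for all genes as for the subunits: 0 subunits passed without AC control 1, AC control 2, AC injury 2, AC injury 3 or PCA control 3, 1 passed without AC control 3 or PCA control 2, and 4 or 5 passed without AC injury 1, PCA injury 1 or PCA injury 3. The share of all genes called was 0.0907% to 1.02% in the fits with 0 subunits, 0.886% and 1.18% in those with 1, and 2.82% to 4.63% in those with 4 or 5. Without the 3 thyroid-rich arrays 0.0698% of all genes and none of the subunits passed, too few calls to say anything of the subunits. The PCA and AC injury effects come from separate arrays and had the same sign for 21 of the 25 subunits (84.0%), against 65.1% of all genes.

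**Figure D1:**
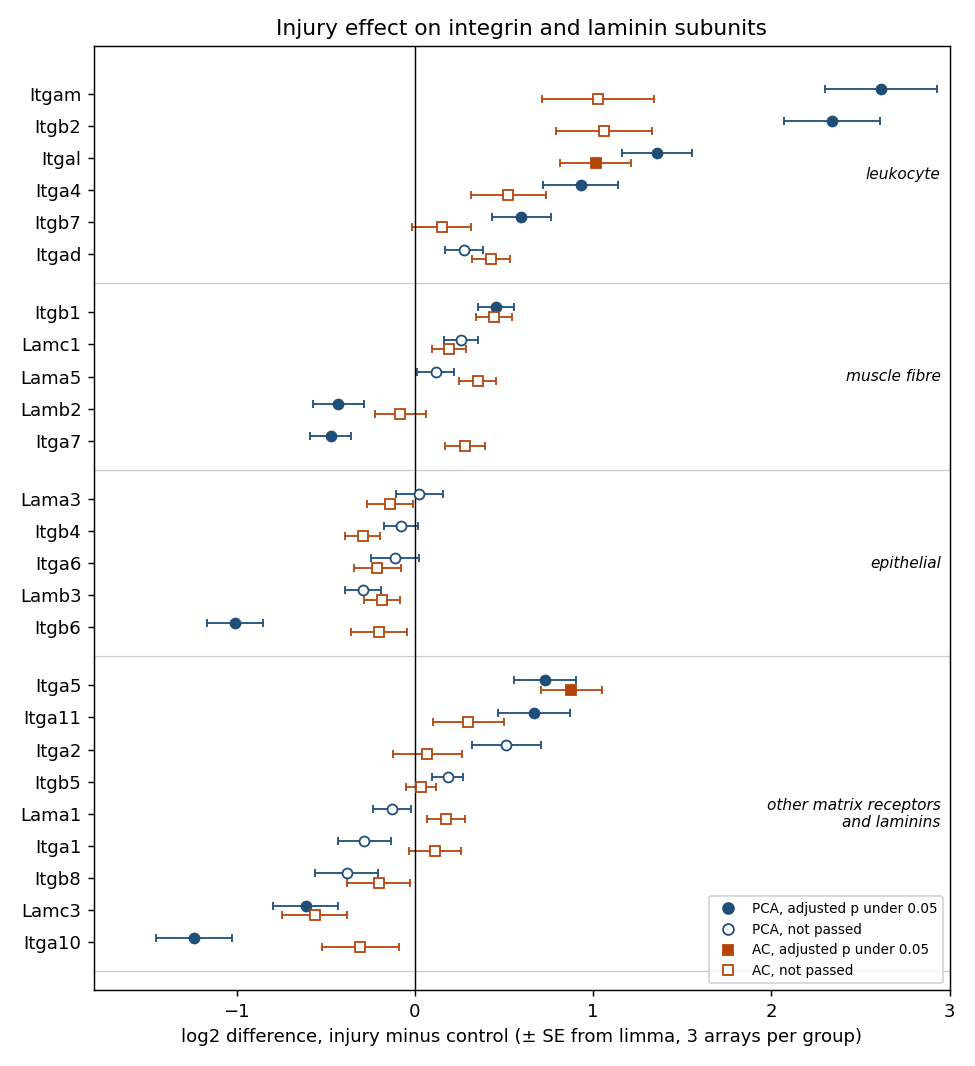
Log2 difference between injury and control for the 25 subunits, in PCA (circles) and AC (squares), with the SE from limma, 3 arrays per group, and filled symbols for an adjusted p under 0.05. Itgam and Itgb2 lie farthest to the right in PCA (2.62 and 2.34), Itga10 and Itgb6 farthest to the left (-1.24 and -1.01), and Itga7 is the one subunit whose injured arrays lie below all controls in PCA and above all controls in AC.

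The leukocyte integrins showed the largest differences, and 5 of the 6 measured ones rose in injured PCA (83.3%), as 13.3% of all genes did. Itgam, the alpha chain of the complement receptor of macrophages and granulocytes, stood at 5.76, 6.45 and 6.18 in PCA control 1, 2 and 3 and at 9.39, 8.43 and 8.42 in PCA injury 1, 2 and 3. All injured arrays were thus above all controls, and the rise was 2.62 ± 0.31, or 6.13-fold (adjusted p = 0.000412). Its partner Itgb2, the beta chain common to this branch, went from 7.67, 8.18 and 7.72 to 10.69, 10.02 and 9.88. This rise of 2.34 ± 0.27, or 5.06-fold, was again without overlap (adjusted p = 0.000356). Itgal, which with Itgb2 forms the receptor for Icam1 on T cells and other leukocytes, stood at 7.20, 7.57 and 7.40 in controls and at 9.20, 8.62 and 8.42 after injury. It rose by 1.36 ± 0.20 (adjusted p = 0.000962). For all 3 genes PCA injury 1 was the highest array.

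The remaining leukocyte chains differed less. Itga4, which binds Vcam1 and fibronectin, stood at 6.94, 7.34 and 7.01 in control PCA and at 8.36, 7.64 and 8.08 after injury, a rise of 0.93 ± 0.21 (adjusted p = 0.00823). Itgb7, the partner of Itga4 on gut-homing lymphocytes, went from 6.75, 7.06 and 6.94 to 7.81, 7.10 and 7.63. PCA injury 2 lay only just above the highest control, and the rise of 0.60 ± 0.17 (adjusted p = 0.0226) did not pass without PCA control 1, PCA control 3, PCA injury 1 or PCA injury 3. Itgad, a further Itgb2 partner, stood at 6.17, 6.34 and 6.0 in control PCA and 6.64, 6.34 and 6.36 in injured PCA, with PCA injury 2 level with the highest control. Its difference was 0.28 ± 0.11 and did not pass (adjusted p = 0.0804). Itgam and Itgad stand next to each other in the rat gene order with only Itgax between them, and their PCA differences were 2.62 and 0.28.

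In the AC the same 6 genes all lay higher after injury, but Itgal was the only one to pass. It stood at 7.39, 7.43 and 7.54 in AC control 1, 2 and 3 and at 8.11, 8.63 and 8.66 in AC injury 1, 2 and 3, a rise of 1.01 ± 0.20 (adjusted p = 0.0351). This call was lost without PCA control 3, AC control 1, AC control 2, AC control 3, AC injury 2 or AC injury 3. Itgam stood at 6.88, 7.02 and 7.15 against 7.41, 8.14 and 8.58. The groups did not overlap, yet the difference of 1.03 ± 0.31 did not pass (adjusted p = 0.104). Itgb2 stood at 8.39, 8.44 and 8.68 against 8.96, 9.72 and 10.01, with a difference of 1.06 ± 0.27 (adjusted p = 0.0698). For both genes AC injury 1 lay nearest to the controls. Itgad (0.43 ± 0.11), Itga4 (0.52 ± 0.21) and Itgb7 (0.15 ± 0.17) had adjusted p of 0.0656, 0.193 and 0.67.

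In controls the PCA arrays lay below all AC arrays for 3 of these 6 transcripts, though none passed. Over all genes such separation held for 2284 of 14329. Itgam was lower in control PCA than in control AC by 0.89 ± 0.31 on the log2 scale (adjusted p = 0.0986), Itgb2 by 0.65 ± 0.27 (adjusted p = 0.154) and Itgb7 by 0.44 ± 0.17 (adjusted p = 0.123). After injury the arrays of the muscles overlapped, with Itgam at 8.42 to 9.39 in PCA and at 7.41 to 8.58 in AC. In the same control comparison 7 of 16 macrophage and 9 of 12 neutrophil markers were lower in PCA, against 7.39% of all genes. The injury effect in AC minus that in PCA was -1.59 ± 0.44 for Itgam (adjusted p = 0.109) and -1.28 ± 0.38 for Itgb2 (adjusted p = 0.128), so the fit did not call the effects of the muscles different.

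**Figure D2:**
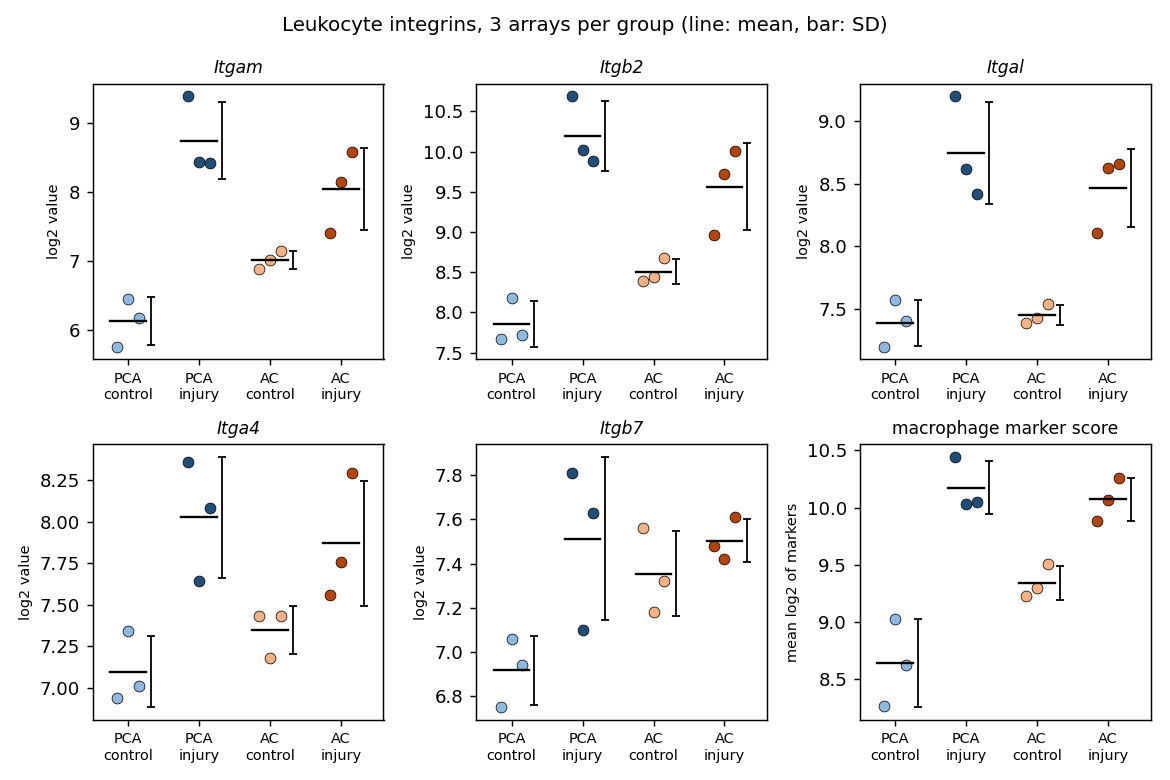
Log2 levels of 5 leukocyte integrin subunits and the score of 16 macrophage markers (mean log2) in each of the 12 arrays, with the mean (line) and SD (bar) of 3 arrays per group. All 3 injured PCA arrays lie above all 3 PCA controls in every panel. Control AC lies above control PCA for Itgam, Itgb2, Itgb7 and the macrophage score.

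All 16 macrophage markers lay higher after injury in both muscles, as these subunits did, while neutrophil and lymphocyte markers were divided. Of 16 macrophage markers 14 rose in injured PCA and 3 in injured AC, against 13.3% and 1.15% of all genes. Their score was 8.26 to 9.03 in control PCA, 10.03 to 10.44 in injured PCA, 9.23 to 9.51 in control AC and 9.89 to 10.26 in injured AC, and the lowest single value of a marker was 5.35. Of 12 neutrophil markers 2 rose in injured PCA (score 5.98 to 6.13 in controls, 6.32 to 6.61 after injury). In injured AC 4 of them fell, from a score of 7.44 to 7.93 to one of 6.58 to 7.13. Of 13 lymphocyte markers 3 rose and 1 fell in injured PCA, with scores of 6.22 to 6.49 and 6.47 to 6.67. In PCA 16.7% of the neutrophil and 30.8% of the lymphocyte markers passed, against 25.8% of all genes. In such bulk tissue a change in the number of cells of a type and a change in RNA per cell cannot be told apart, and the part of these cell types in the integrin results was not tested.

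The muscle laminin receptor divided: its alpha chain Itga7 was lower and its beta chain Itgb1 higher in injured PCA. Itga7 stood at 9.28, 9.63 and 9.43 in PCA control 1, 2 and 3 and at 8.83, 9.10 and 8.99 in PCA injury 1, 2 and 3. It fell by 0.47 ± 0.11 on the log2 scale without overlap (adjusted p = 0.0112). In AC the injured arrays instead lay above the controls, at 8.99, 9.20 and 9.10 against 8.97, 8.67 and 8.81. That difference of 0.28 ± 0.11 did not pass (adjusted p = 0.198), and AC injury 1 exceeded the highest control by only a little. Among controls Itga7 was higher in PCA than in AC by 0.63 ± 0.11 (adjusted p = 0.00645), the smallest adjusted p of the 25 in that comparison. The difference of its injury effects, AC minus PCA, was 0.75 ± 0.16 and did not pass (adjusted p = 0.0684).

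Itgb1 is the common partner of 8 of the measured alpha chains, in muscle and in most other cells. It stood at 10.94, 10.90 and 10.85 in control PCA and at 11.48, 11.24 and 11.33 in injured PCA, a rise of 0.45 ± 0.10 (adjusted p = 0.00785). In AC it stood at 10.84, 10.80 and 11.01 in controls and at 11.14, 11.35 and 11.49 after injury. That difference of 0.44 ± 0.10 did not pass (adjusted p = 0.0518). The effects of the muscles differed by -0.01 ± 0.14. Of its 8 alpha partners Itga4, Itga5 and Itga11 rose in injured PCA, Itga7 and Itga10 fell, and Itga1, Itga2 and Itga6 did not pass.

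Itga5, the fibronectin receptor chain, was the one subunit besides Itgal that rose in both muscles. It stood at 9.31, 9.31 and 9.17 in control PCA and at 10.31, 9.90 and 9.77 after injury. In AC it stood at 8.92, 8.83 and 9.27 in controls and at 9.56, 9.99 and 10.10 after injury. No injured array reached down to a control of its muscle. The rise was 0.73 ± 0.17 in PCA (adjusted p = 0.0101) and 0.88 ± 0.17 in AC (adjusted p = 0.0358). The AC call was lost without AC control 1, AC control 2, AC injury 2, AC injury 3, PCA control 2 or PCA control 3, with a difference of at least 0.77 in each of the settings tried. The score of 10 fibroblast markers was 10.18 to 10.55 in control PCA and 11.17 to 11.54 in injured PCA. In AC it was 10.40 to 10.95 in controls and 11.04 to 11.47 after injury. Of the 10 markers 8 rose in PCA, where 13.3% of all genes did, and 1 in AC, where 1.15% did. The part of fibroblast content in the results for Itga5 and Itga11 was not tested.

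The 4 collagen receptor chains did not move together. Itga11, the fibroblast one, stood at 8.28, 8.82 and 8.53 in control PCA and at 9.40, 9.16 and 9.07 in injured PCA. It rose by 0.67 ± 0.20 (adjusted p = 0.0312), a call lost without PCA control 1, PCA control 3, PCA injury 1 or PCA injury 2. In AC its groups overlapped, at 8.92, 8.66 and 8.89 against 8.73, 9.05 and 9.59 (0.30 ± 0.20, adjusted p = 0.446). Itga2, found on epithelium and platelets, ranged from 7.01 to 7.79 in control PCA and from 7.68 to 8.28 in injured PCA. Its difference of 0.51 ± 0.19 did not pass (adjusted p = 0.0753), and in AC it was 0.07 ± 0.19.

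**Figure D3:**
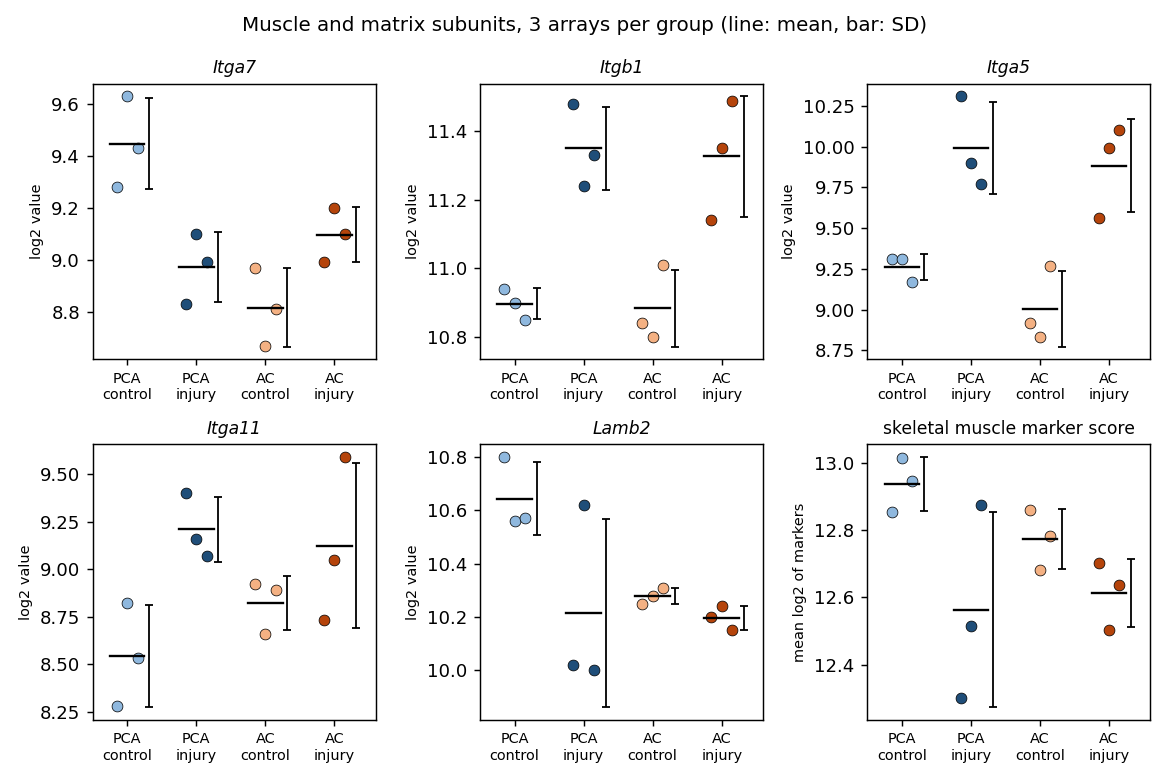
Log2 levels of Itga7, Itgb1, Itga5, Itga11 and Lamb2 and the score of 11 skeletal muscle markers (mean log2) in each of the 12 arrays, with the mean (line) and SD (bar) of 3 arrays per group. Itga5 and Itgb1 are higher in every injured array than in every control of the same muscle, whereas Itga7 is lower in injured PCA and highest in control PCA.

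Itga10, the collagen receptor of chondrocytes, showed the largest fall of the 25. It stood at 7.97, 7.81 and 8.68 in control PCA and at 6.93, 6.91 and 6.90 in injured PCA, so that the injured arrays were nearly equal and all below the controls. The fall was 1.24 ± 0.22 on the log2 scale (log2 difference -1.24, adjusted p = 0.00226). Among controls it was higher in PCA than in AC by 0.81 ± 0.22 (adjusted p = 0.035), a call that did not pass without PCA control 1, PCA control 3, AC control 1, AC control 3 or AC injury 3, nor without the 3 thyroid-rich arrays (0.91 ± 0.26, adjusted p = 0.0903). In AC it stood at 7.02, 7.71 and 7.29 in controls and at 7.21, 6.89 and 7.0 after injury (-0.31 ± 0.22, adjusted p = 0.471). Cartilage markers moved with it. Of 12 such genes 11 fell in injured PCA and 9 were higher in control PCA than in control AC. Over all genes 12.5% fell in injured PCA and 3.24% were higher in control PCA. Their score was 9.81, 9.43 and 10.10 in PCA control 1, 2 and 3, 8.23 to 8.54 in injured PCA, 8.39 to 9.12 in control AC and 8.51 to 8.86 in injured AC. PCA control 3 was highest for both Itga10 and the score. Fat markers moved likewise: 10 of 11 fell in injured PCA and 8 were higher in control PCA, with a score of 8.84 to 9.21 in control PCA, 7.70 to 8.23 in injured PCA, 7.77 to 7.86 in control AC and 7.57 to 8.11 in injured AC. The part of cartilage and fat in the result for Itga10 was not tested. With the squamous covariate the PCA difference was -0.63 ± 0.32 (adjusted p = 0.3).

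Itga1, a collagen receptor of vessels, fibroblasts and muscle, stood at 9.94, 9.52 and 9.48 in control PCA and at 9.03, 9.17 and 9.20 in control AC. It was higher in PCA by 0.51 ± 0.15 (adjusted p = 0.0478), a call that was lost in 14 of 22 other settings, among them the removal of any single control array and of the 3 thyroid-rich arrays (0.37 ± 0.11, adjusted p = 0.0991). After injury it did not pass in PCA (-0.28 ± 0.15) or AC (0.11 ± 0.15).

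Of the 5 epithelial subunits none rose and 1, Itgb6, fell in injured PCA, which is 20.0% and near the 25.8% of all genes. Of 9 squamous epithelium markers 8 rose in injured PCA, with a score of 8.65, 10.16 and 8.27 in PCA control 1, 2 and 3 and of 10.54 to 11.07 after injury. Itgb4, the hemidesmosome chain, stood at 10.02, 10.26 and 10.14 in control PCA and at 9.98, 10.17 and 10.04 in injured PCA (-0.08 ± 0.10, adjusted p = 0.619). Its partner Itga6, which vessels and Schwann cells carry too, differed by -0.11 ± 0.13, Lama3 by 0.02 ± 0.13 and Lamb3 by -0.29 ± 0.10 (adjusted p = 0.592, 0.925 and 0.0536). Of 8 other hemidesmosome genes 3 rose and none fell in injured PCA (37.5%, against 25.8% of all genes). Those that rose were the basal keratins Krt14 (2.14 ± 0.30) and Krt15 (1.18 ± 0.33) and the collagen Col17a1 (0.76 ± 0.18) (adjusted p = 0.00081, 0.0235 and 0.00948). In AC, where 0 of the 9 squamous markers passed in limma (0 also at an unadjusted p under 0.05), 0 of the 5 epithelial subunits passed. An unadjusted p under 0.05 was found for 1 of the 5, and for 2904 of 14329 genes.

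Itgb6 stood at 10.01, 10.09 and 10.12 in control PCA, a narrow range, and at 8.79, 8.94 and 9.46 after injury, where PCA injury 3 lay nearest to the controls. The fall was 1.01 ± 0.16 on the log2 scale (log2 difference -1.01, adjusted p = 0.00134). It passed under every one of the 22 other settings, with differences from -1.25 to -0.87. With the squamous score of each array as a covariate it was -1.25 ± 0.27 (adjusted p = 0.0413). That score did not overlap between control and injured PCA, so this fit cannot tell it apart from injury. In AC it ranged from 9.5 to 9.80 in controls and from 9.25 to 9.62 after injury (-0.20 ± 0.16, adjusted p = 0.521), and the difference of both effects was 0.81 ± 0.22 (adjusted p = 0.108). The score of 10 airway epithelium markers was 10.17 to 10.39 in control PCA and 9.85 to 10.41 in injured PCA, with 2 of the 10 falling and none rising (20.0%, against 25.8% of all genes). Its part in the fall of Itgb6 was not tested.

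**Figure D4:**
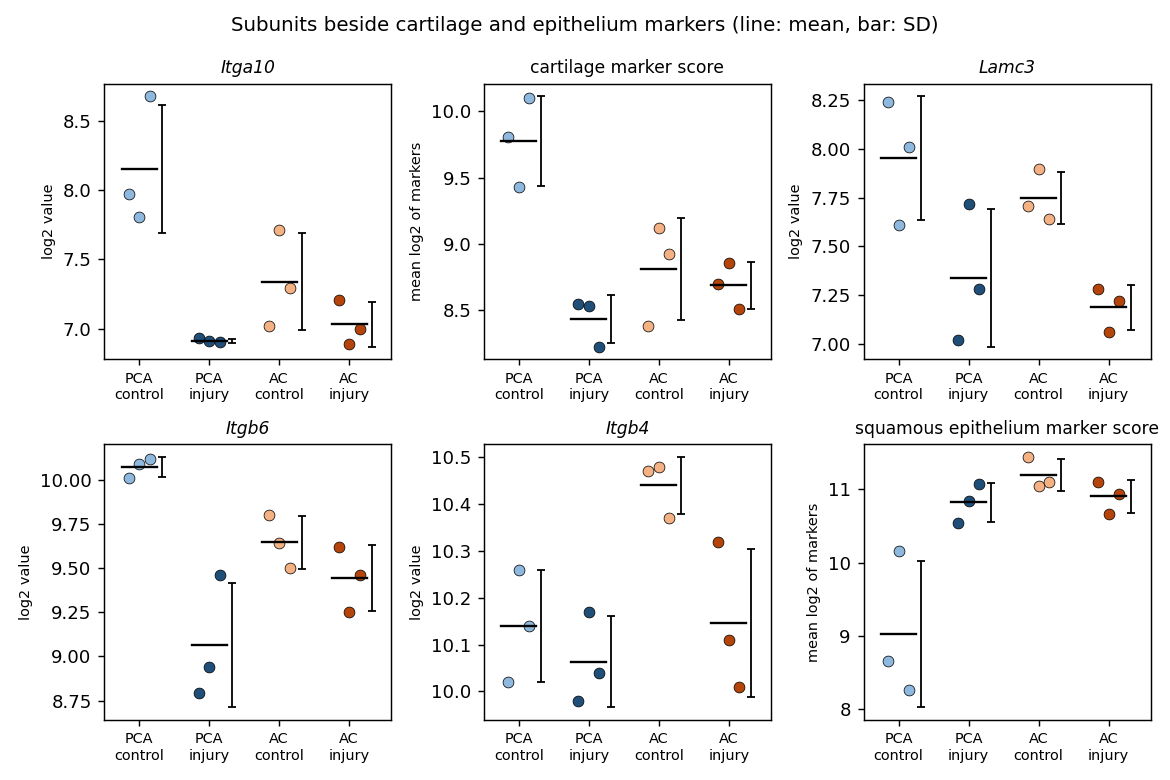
Log2 levels of Itga10, Lamc3, Itgb6 and Itgb4 and the scores of 12 cartilage and 9 squamous epithelium markers (mean log2) in each of the 12 arrays, with the mean (line) and SD (bar) of 3 arrays per group. Itga10 and the cartilage score are both highest in control PCA, while Itgb6 is lower and the squamous score higher in every injured PCA array than in every PCA control.

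Among the laminin chains 2 of 7 fell in injured PCA and none rose, which is 28.6% and near the 25.8% of all genes. Lamb2, the beta chain enriched at the neuromuscular junction, stood at 10.80, 10.56 and 10.57 in control PCA and at 10.02, 10.62 and 10.00 in injured PCA. PCA injury 2 lay among the controls, and the fall of 0.43 ± 0.14 on the log2 scale (log2 difference -0.43, adjusted p = 0.0465) was lost in 15 of 22 other settings, among them the removal of any single array other than PCA injury 2. Without the 3 thyroid-rich arrays, of which PCA injury 2 is one, it was -0.56 ± 0.08 (adjusted p = 0.00616). Lamc3, a gamma chain of skin and nerve basement membranes, stood at 8.24, 7.61 and 8.01 in control PCA and at 7.02, 7.72 and 7.28 after injury, again with PCA injury 2 among the controls. It fell by 0.61 ± 0.18 on the log2 scale (log2 difference -0.61, adjusted p = 0.0309), a call lost without PCA control 1, PCA control 3, PCA injury 1 or PCA injury 3. In AC the Lamc3 arrays did not overlap, at 7.71, 7.90 and 7.64 in controls and at 7.28, 7.06 and 7.22 after injury, and the difference of -0.56 ± 0.18 did not pass (adjusted p = 0.123).

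The chains of the general basement membrane differed little. Lamc1, the gamma chain of most laminins, stood at 10.26, 10.53 and 10.30 in control PCA and at 10.69, 10.57 and 10.60 in injured PCA (0.26 ± 0.10, adjusted p = 0.0707), and its AC difference was 0.19 ± 0.10. Lama5, found in vessel and junctional basement membranes, differed by 0.12 ± 0.10 in PCA. In AC it stood at 8.24, 8.41 and 8.42 in controls and at 8.71, 8.83 and 8.59 after injury (0.35 ± 0.10, adjusted p = 0.0947). Lama1, an embryonic chain and one of the dimmer probe sets of the table, ranged from 5.81 to 6.30 over the 12 arrays. Itgb5 and Itgb8, both partners of Itgav, differed by 0.18 ± 0.09 and -0.38 ± 0.18 in PCA and did not pass (adjusted p = 0.147 and 0.14).

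Other genes of the pathway give the setting. Of 26 measured genes of integrin adhesion and signalling 12 rose and 2 fell in injured PCA (53.8%). The same fit called 25.8% of all genes, 13.3% higher and 12.5% lower. Fermt3, the kindlin that activates integrins in blood cells, rose by 1.45 ± 0.22, the focal adhesion kinase relative Ptk2b by 0.79 ± 0.09, and Lims2, an adaptor of the integrin-linked kinase, fell by 0.68 ± 0.14 on the log2 scale. Of 12 genes of the dystroglycan complex none rose and 6 fell (50.0%), among them dystrophin, Dmd (-0.54 ± 0.10), and the sarcoglycan Sgca (-0.69 ± 0.19). The 11 skeletal muscle markers lay lower too, with 5 of them falling (45.5%). Their score was 12.30 to 12.87 in injured PCA against 12.85 to 13.01 in controls. The part of muscle content in these results was not tested. Of 13 integrin ligands 5 rose and 1 fell (46.2%). Those that rose included Tgfbi (1.80 ± 0.26), periostin, Postn (1.83 ± 0.30), and Tgfb1, whose latent form is bound by the Itgb6 receptor (1.48 ± 0.12). Of 17 partners of leukocyte integrins none fell and 8 rose (47.1%), among them the Itgb2 ligand Icam1 (0.55 ± 0.10). Of 10 basement membrane partners of laminin none rose and 2 fell, which is 20.0% and below the 25.8% of all genes.

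In AC few of these genes passed, where 1.91% of all genes did. Of the 13 ligands 2 rose (15.4%), Tgfb1 (0.71 ± 0.12) and Emilin1 (1.01 ± 0.21). Of the 10 basement membrane partners 1 rose (10.0%), the nidogen Nid2 (0.64 ± 0.14). In the adhesion, dystroglycan and leukocyte partner lists 0 passed in limma, with 11 of 26, 5 of 12 and 6 of 17 at an unadjusted p under 0.05. Over all genes 2904 of 14329 had such a p in AC.

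Between the muscles 3 of the 25 subunits differed in controls, Itga7, Itga10 and Itga1, all higher in PCA. That is 12%, against 10.6% of all genes, of which 3.24% were higher and 7.39% lower in PCA. With single arrays left out 1 to 5 subunits passed, with 1 alone, Itga7, when PCA control 1, PCA control 3, AC control 1, AC control 3 or AC injury 3 was removed and 5 when PCA injury 2 was. Without the 3 thyroid-rich arrays Itga7 alone passed, where 5.67% of all genes did. After injury 0 of the 25 differed between PCA and AC in limma, as did 0% of all genes. An unadjusted p under 0.05 was found for 4 of the 25 and for 517 of 14329 genes. Over the 25 the differences after injury ran from -0.38 to 0.70, against -0.89 to 0.81 in controls. For the difference of both injury effects 0 of the 25 passed, where 0.154% of all genes did. An unadjusted p under 0.05 was found for 5 of the 25 and for 2247 of 14329 genes. The 5 were Itga7, Itgb6, Itgam, Itgb2 and Itga10.

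Promoter sequence shows what lies before the subunits that moved in PCA. RefSeq's table of the rat assembly GRCr8 held an entry for 18 of the 25. The 250 bases before the gene start are printed 5′ to 3′ along the gene for the largest riser with an entry, for Itga5, and for both largest fallers. Capitals mark GAGGAA, the core bound by the myeloid factor PU.1 and other Ets proteins, and GGGCGG, the GC box, on either strand, so that TTCCTC and CCGCCC are the same motifs on the other strand. No base lies in 2 matches. The windows are chr1:192089342-192089591 on the plus strand for Itgam, chr7:136381306-136381555 on the minus strand for Itga5, chr2:186871461-186871710 on the plus strand for Itga10, and chr3:65530334-65530583 on the minus strand for Itgb6.
Itgam: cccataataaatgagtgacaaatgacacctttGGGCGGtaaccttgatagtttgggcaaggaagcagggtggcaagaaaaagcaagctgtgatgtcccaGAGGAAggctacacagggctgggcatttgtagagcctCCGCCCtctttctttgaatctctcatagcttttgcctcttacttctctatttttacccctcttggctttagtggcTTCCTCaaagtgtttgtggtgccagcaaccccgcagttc
Itga5: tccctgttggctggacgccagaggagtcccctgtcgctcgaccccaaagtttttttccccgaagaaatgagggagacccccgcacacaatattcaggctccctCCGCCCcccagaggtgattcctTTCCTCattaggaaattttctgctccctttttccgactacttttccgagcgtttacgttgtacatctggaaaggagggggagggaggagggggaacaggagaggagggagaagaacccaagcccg
Itga10: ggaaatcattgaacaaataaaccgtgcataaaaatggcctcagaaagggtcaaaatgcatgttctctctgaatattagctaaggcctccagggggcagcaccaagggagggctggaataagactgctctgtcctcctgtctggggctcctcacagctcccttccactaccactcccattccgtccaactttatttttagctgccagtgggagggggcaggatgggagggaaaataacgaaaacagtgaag
Itgb6: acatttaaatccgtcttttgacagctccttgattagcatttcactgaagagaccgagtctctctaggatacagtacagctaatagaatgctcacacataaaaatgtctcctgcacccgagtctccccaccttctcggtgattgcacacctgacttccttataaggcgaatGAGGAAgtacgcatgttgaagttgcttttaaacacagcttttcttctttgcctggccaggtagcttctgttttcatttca

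The Itgam window held GAGGAA at 151 to 146 bases before the start on the plus strand and at 39 to 34 bases on the minus strand, together with a GC box on each strand. The Itga5 window held 1 of each, the Itgb6 window 1 GAGGAA, and the Itga10 window neither. Over the subunits with an entry, GAGGAA was found for 8 of 18 (44.4%), against 23.2% of 27457 windows of the same length. GGGCGG was found for 9 of 18 (50.0%), against 32.4%. The 27457 windows were not limited to the genes measured here, so these shares do not compare like sets. Of the other motifs searched on both strands, TATAAA, the TATA box, was found for 1 of 18 (5.56%), against 13.1%, and CAGCTG, an E box, for 2 of 18 (11.1%), against 11.9%. The 8 with GAGGAA were Itgam, Itga5, Itga11, Itgb1, Itgb6, Lama5, Lamb3 and Lamc1, of which 4 rose, 1 fell and 3 did not pass in injured PCA, while Itga4 and Itgb7, leukocyte chains that rose, were without a match in this window. A match is a description of the letters and says nothing of binding.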

How the data were processed

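Biotin-labelled RNA from 12 specimens of rat laryngeal muscle was hybridised to whole-transcript Affymetrix arrays, per the labels' protocols. The table the authors deposited holds log2 values, with the base judged from their range, and was used as it stands. The submitters' processing notes mention RMA and Partek but no version or step. Array medians lay between 7.11 and 7.17, and the number of arrays limits the precision.

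Of 27342 probe sets 15103 carried a single gene symbol and were kept, while 317 with several and 11922 with no symbol were not. Gene identifiers matched 15067 to RefSeq names. The probe set with the highest mean was kept per gene. One limma model (3.58.1, R 4.3.3) with a mean per group was fitted to 14329 genes over 12 arrays, with 8 residual and 3.14 prior degrees of freedom, two-sided tests and Benjamini-Hochberg adjustment over all genes at 0.05. The fit was tried on simulated data with independent noise and 200 changed genes. For injury in PCA 55.2% of 1.5-fold changes were recovered and 6.74% of calls were false. For the difference of injury effects these shares were 37.3% and 9.15%. The deposited data differ from that setting, with 3697 genes called in injured PCA. Other settings changed the scaling, the dim genes kept, the probe set used, limma's prior, the weights of arrays, a replicate block or the groups in the model, or removed 1 array. After the data were seen, fits without the 3 thyroid-rich arrays and with the squamous score as a covariate were added. Members, roles and lists were chosen with earlier results of these data known; all members may be named, and from each pathway list the 4 genes with the smallest p in PCA and the 2 in AC. Plots used Python 3.11.15 and matplotlib 3.10.9.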

Additional observations from a re-analysis of the deposited data

Results flagged for a closer look

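Itga7 was singled out because its injured arrays lay all below the controls in PCA (8.83 to 9.10 against 9.28 to 9.63) and all above them in AC (8.99 to 9.20 against 8.67 to 8.97). Such opposite separation held for 150 of 14329 genes (1.05%). The difference of its injury effects was 0.75 ± 0.16 on the log2 scale and did not pass in limma (adjusted p = 0.0684); with array weights, which raised the calls over all genes from 0.154% to 2.43%, it passed. Groups of 3 arrays were not tested for single outlying arrays.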

How the results depend on the processing

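The 18 calls of single subunits kept their direction under all 22 other settings. In many settings the difference could not change, so its direction there says nothing of stability. Each subunit has 1 probe set. The prior, the replicate block, the dim filter and arrays of groups not compared leave the difference of group means as it was. Of the 396 results, each for 1 call in 1 setting, 310 stayed past the threshold and 86 did not. Itgam, Itgb2 and Itgb6 in injured PCA passed in all settings. The count of 13 for injury in PCA was 3 under the squamous covariate, where calls over all genes dropped from 25.8% to 3.31%, and 9 to 15 in all other settings, where 15.8% to 35.1% of genes were called. The count of 2 for injury in AC was 5 with array weights, 4 with the compared groups alone, 0 with the replicate block, 0 without the thyroid-rich arrays, 0 with the squamous covariate, and 0 to 5 with single arrays left out; over all genes these shares were 4.91%, 4.32%, 0.412%, 0.0698%, 0.9% and 0.0907% to 4.63%, against 1.91%. The count of 3 between control muscles was 6 with array weights, 5 with the compared groups alone, 1 with the replicate block, 1 without the thyroid-rich arrays, 0 with the squamous covariate, and 1 to 5 with single arrays left out; over all genes these shares were 18.3%, 9.79%, 8.11%, 5.67%, 0.014% and 4.98% to 12.7%, against 10.6%. For the difference of the injury effects array weights gave 2 (Itga7 and Itgb6) in place of 0, while calls over all genes went from 0.154% to 2.43%. The cause was not tested. Of 18 pairs of same-numbered arrays 4 had a correlation of deviations over 0.1 (range -0.39 to 0.34), and 1 of 12 arrays was closest to its own number. With 3 arrays a group such correlations cannot show whether the numbers pair the arrays, and the labels do not say. The replicate block gave 10 in PCA, beside the lower counts in AC and between control muscles given above. With 3 arrays a group, differences that did not pass are not shown to be absent.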
